A study of Mus musculus with 8 samples.

Results

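Glycolysis, gluconeogenesis and glycogen metabolism were represented by 40 genes, which encode glucose transporters, the enzymes of the glycolytic and gluconeogenic routes and their regulators, the enzymes of glycogen storage and breakdown, and the glycerol phosphate shuttle. They were chosen by gene name out of 21887 protein-coding genes of the reference annotation, and a gene was called bound where a peak list held an ERRα peak annotated to it within 20 kb of its transcription start site (TSS). Peaks, ranks and counts of a gene refer to this distance unless another is given. ERRα-bound chromatin had been profiled by ChIP-seq, in which DNA attached to a protein is recovered with an antibody and sequenced, in skeletal muscle (gastrocnemius and soleus) and liver of male C57BL/6N mice aged 2 to 3 months. WT mice were set beside ERRα3SA mice, a phospho-mutant in which 3 serines of ERRα are replaced by alanine in every tissue. Each library combined 3 immunoprecipitations from chromatin pooled from 5 mice for muscle or from 2 mice for liver, so each genotype and tissue has 1 peak list, no replicate check and no p-value. The study's methods give another number of immunoprecipitations than its sample labels, which are followed here. In all, 38 of the 40 had a peak within 20 kb in at least 1 list, and the lists together held 292 such peaks.

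ERRα is an orphan nuclear receptor that works with the coactivator PGC-1α and is best known for its control of mitochondrial oxidative genes in tissues with a high energy demand. It binds DNA at the ERR response element (ERRE), an extended half-site of nuclear receptors. Glycolysis breaks glucose down to pyruvate in every cell. Muscle stores glycogen for its own contraction, whereas liver can also make glucose and release it into blood, and several steps are carried out by different isozymes in muscle and liver.

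The binding sites are shown first, since later results turn on whether an interval held the ERRE. The ERRE was searched as TCAAGGTCA on both strands, and 18 such sites lay in the called intervals of 12 of the genes. Of the 5 that lay inside an interval in all 4 lists, 4 are printed here with 30 bases to either side, read from GRCm38.p6 in the direction of the motif, which is in capitals. None of the 4 lies in an annotated exon. The Aldoa site lies 613 bp from the nearest annotated 5′ end, the Gapdh site 618 bp, the Pkm site 7106 bp and the Gys1 site 9266 bp.
Aldoa (chr7:126798531-126798599, plus strand): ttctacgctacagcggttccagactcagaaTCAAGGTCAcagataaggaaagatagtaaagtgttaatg
Gapdh (chr6:125165121-125165189, minus strand): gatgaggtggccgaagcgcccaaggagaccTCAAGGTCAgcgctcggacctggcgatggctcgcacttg
Pkm (chr9:59664299-59664367, plus strand): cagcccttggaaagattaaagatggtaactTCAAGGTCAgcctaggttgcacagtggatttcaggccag
Gys1 (chr7:45444071-45444139, plus strand): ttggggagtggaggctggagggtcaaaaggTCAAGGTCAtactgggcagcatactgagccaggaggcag

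Sites inside intervals of both genotypes of a single tissue are printed in the same way, as examples of an ERRE covered in 1 tissue. Slc2a4, Pfkm and a further Gys1 site were covered in both muscle lists and in neither liver list. For Gys1, liver intervals overlapped the muscle ones but did not reach this site. G6pc had a pair of sites covered in both liver lists and in neither muscle list, of which the one farther upstream is shown. A Pck1 site in an untranslated exon was also covered in both liver lists and in neither muscle list, and is not printed.
Slc2a4 (chr11:69946914-69946982, minus strand): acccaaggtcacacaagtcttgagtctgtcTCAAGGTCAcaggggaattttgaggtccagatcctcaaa
Pfkm (chr15:98117968-98118036, minus strand): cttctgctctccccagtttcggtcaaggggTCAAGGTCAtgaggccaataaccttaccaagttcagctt
Gys1, muscle site (chr7:45443204-45443272, plus strand): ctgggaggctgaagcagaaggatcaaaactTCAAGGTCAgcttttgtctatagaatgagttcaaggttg
G6pc, liver site (chr11:101358655-101358723, minus strand): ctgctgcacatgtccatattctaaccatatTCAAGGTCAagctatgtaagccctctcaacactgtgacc

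The best-ranked liver intervals of G6pc and Slc2a1 held no TCAAGGTCA but a variant in which the second base differs (TNAAGGTCA), shown in capitals.
G6pc, best interval (chr11:101362824-101362892, plus strand): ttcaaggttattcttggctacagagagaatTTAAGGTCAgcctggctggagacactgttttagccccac
Slc2a1, best interval (chr4:119116086-119116154, plus strand): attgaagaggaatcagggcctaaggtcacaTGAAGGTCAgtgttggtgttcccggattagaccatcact

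The promoters of Eno1 and Gpi1, which are among the best-ranked intervals of all 4 lists, held neither form in the 300 bases around the annotated starts. The 100 bases before a start are shown for each, in lower case throughout and on the strand of the gene.
Eno1 (chr4:150237097-150237196, plus strand): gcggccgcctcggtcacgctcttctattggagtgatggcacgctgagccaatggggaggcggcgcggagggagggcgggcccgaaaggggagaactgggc
Gpi1 (chr7:34230337-34230436, minus strand): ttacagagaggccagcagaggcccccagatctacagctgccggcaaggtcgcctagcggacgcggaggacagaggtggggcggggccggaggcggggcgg

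Over all promoters of the RefSeq set for this build, TCAAGGTCA was found in 139 of 32851 windows of 300 bases (0.423%), and in 0 of the 55 windows matched to 36 of the 40 genes. TNAAGGTCA was found in 1.28% of all windows and in 1 of the 55.

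The share of bound genes was above that of all protein-coding genes in each of the 4 lists. In WT muscle 23 of 40 (57.5%) had a peak within 20 kb, beside 34.5% of all protein-coding genes. In ERRα3SA muscle 30 (75%) did, beside 48%. In liver the numbers were 26 (65%) beside 30% in WT and 35 (87.5%) beside 37.7% in ERRα3SA. The lists held 25427 peaks for WT muscle, 50647 for ERRα3SA muscle, 21813 for WT liver and 29040 for ERRα3SA liver, so the larger numbers in ERRα3SA stand beside longer lists of all genes. The lists carry no read numbers, and the depth behind them is unknown. In bulk tissue, binding in fewer cells and weaker binding per cell cannot be told apart.

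The genes were then counted by intervals with a high score, the number that the authors' peak caller gave each peak against input DNA. With a score of at least 100, 11 genes (27.5%) remained bound in WT muscle beside 2.87% of all protein-coding genes, and 14 (35%) in ERRα3SA muscle beside 5.5%. In liver 15 (37.5%) remained in WT beside 8.02%, and 22 (55%) in ERRα3SA beside 11.9%. With a score of at least 200, added after seeing the data, 7, 11, 9 and 14 genes remained in the order used above, beside 1.28%, 2.52%, 3.90% and 6.27% of all protein-coding genes. Intervals of the genes also ranked higher within their list. Peaks were ranked by score, and ties took the best rank. Where a percentage is printed with a rank, it is the rank divided by the length of the list, so that 1 rank gives a smaller value in a longer list. The median best rank of the bound genes was the top 4.66% in WT muscle, 5.37% in ERRα3SA muscle, 11.0% in WT liver and 11.8% in ERRα3SA liver, where all bound protein-coding genes had medians of 39.1%, 23.7%, 37.6% and 34.0%. The bound genes of the set also had more peaks each, as given below, and the part of this in their best ranks was not tested.

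**Figure D1:**
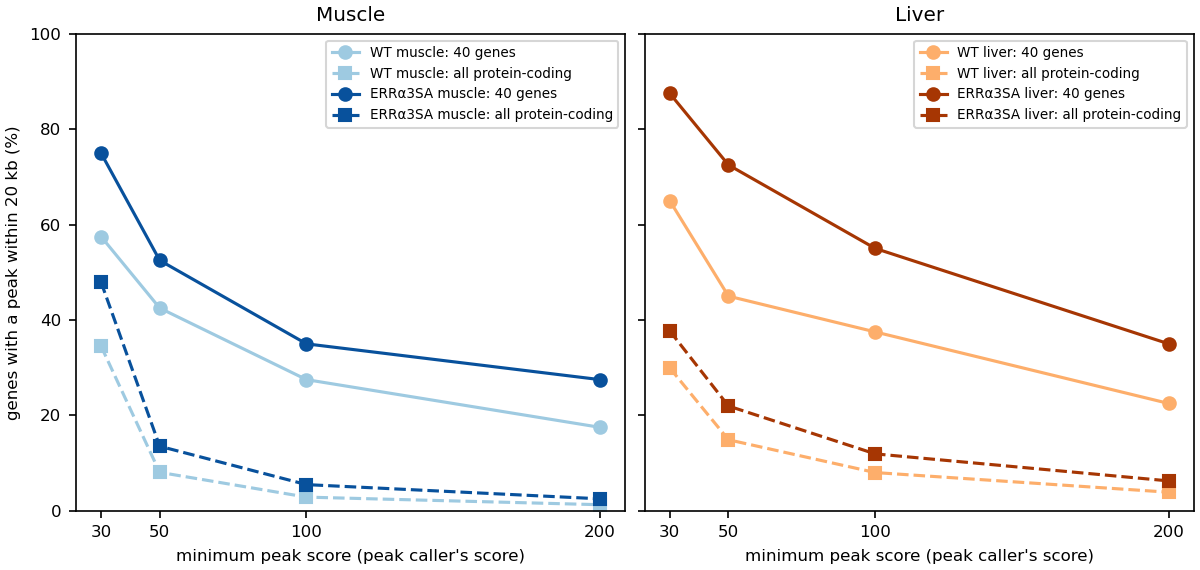
Share of genes with an ERRα peak within 20 kb of the TSS (y axis, percent) against the minimum score of the peaks counted (x axis), in muscle (left) and liver (right), for the 40 genes (circles, solid lines) and all 21887 protein-coding genes (squares, dashed lines). With a minimum of 100 the 40 genes lie between 27.5% and 55%, above the 2.87% to 11.9% of all genes.

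The genes of lower glycolysis, which carry out the steps from fructose bisphosphate to pyruvate, held the best-ranked intervals of the whole set. Of these 11 genes, 9 were bound in each muscle list, 8 in WT liver and 10 in ERRα3SA liver. These counts hold the Eno1 locus under both Eno1 and Eno1b, except in ERRα3SA muscle, where it is under Eno1b alone. Aldoa, the aldolase of muscle and most other tissues, had an interval over its first kilobases that ranked 6 in WT muscle, 7 in ERRα3SA muscle, 11 in WT liver and 10 in ERRα3SA liver. These ranks lie within the top 0.0236%, 0.0138%, 0.0504% and 0.0344% of the lists. The 4 intervals overlapped each other, and the ERRE printed above lay inside each of them. Muscle lists held 2 further Aldoa peaks each upstream of the TSS, and liver lists none.

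The enolase locus came next and needs a remark on its name. Enolase makes phosphoenolpyruvate, and Eno1 is its broadly expressed form. The Eno1 promoter interval ranked 14 in WT muscle, 10 in WT liver and 5 in ERRα3SA liver under the name Eno1, and 14 in ERRα3SA muscle under the name Eno1b. All 11 peaks within 20 kb that carried the name Eno1b lay on chromosome 4 in or beside Eno1. The 8 Eno1b peaks on another chromosome were all farther from a TSS. Eno1 was therefore listed as bound in WT muscle and not in ERRα3SA muscle through the name alone, since the intervals of the 2 genotypes overlapped. A second interval of the locus, about 10 kb downstream of the TSS, also lay in all 4 lists, with ranks of 6260, 2312, 2091 and 2248.

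Gapdh, the dehydrogenase of glyceraldehyde phosphate, ranked 70 in WT muscle and 55 in ERRα3SA muscle. In liver it ranked 127 in WT and 190 in ERRα3SA. The best Gapdh intervals were 2147 to 3949 bp wide and lay over the start of the gene in every list. Pgam1, the phosphoglycerate mutase of most tissues, ranked 1186, 439, 563 and 799 in WT muscle, ERRα3SA muscle, WT liver and ERRα3SA liver. The interval with the best rank in the other 3 lists, 3.7 to 3.9 kb downstream of the TSS, was not called in WT muscle. Tpi1, triose phosphate isomerase, ranked 600, 1077, 582 and 1531 in the same order.

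Pkm, which encodes the pyruvate kinase of muscle, ranked 1543 in WT muscle, 824 in ERRα3SA muscle, 8204 in WT liver and 4514 in ERRα3SA liver. In muscle, it was the intervals at 7931 bp in WT and at 19086 bp in ERRα3SA that ranked best, and in liver those at the promoter. The muscle forms Pgam2 and Eno3 were bound in both muscle lists and, in liver, in ERRα3SA alone. Pklr, the pyruvate kinase of liver, was bound in both liver lists and in ERRα3SA muscle, with best ranks from 7851 to 15059. Aldoc, the aldolase of brain, had no peak annotated to it within 20 kb in any list, although peaks annotated to a neighbouring gene lay within 20 kb of its 5′ end in both muscle lists.

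**Figure D2:**
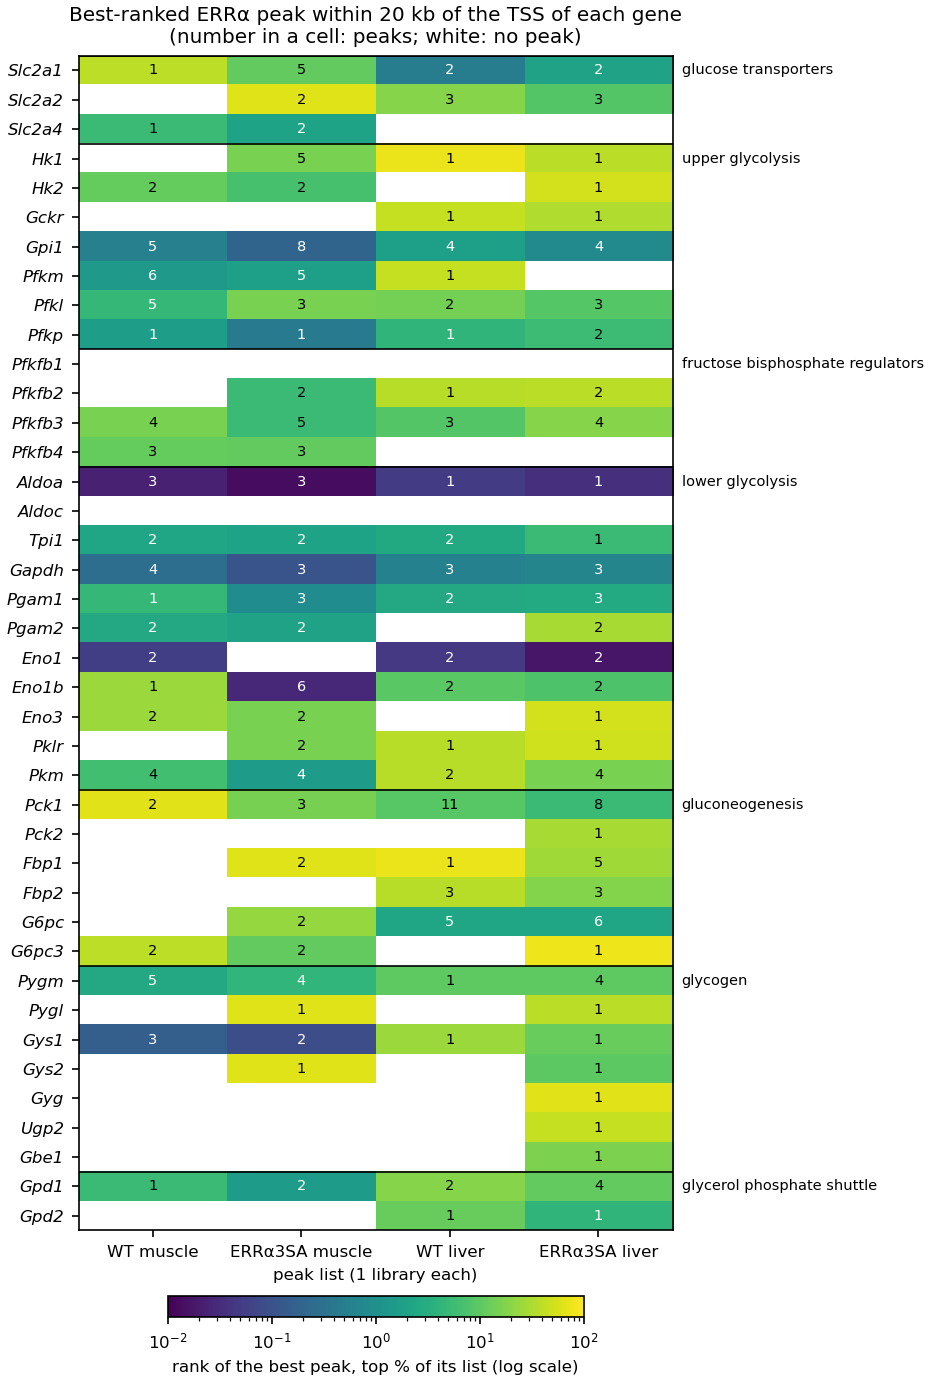
Best-ranked ERRα peak within 20 kb of the TSS of each of the 40 genes (rows, grouped by role) in the 4 lists (columns), with colour for the rank as top percent of the list (log scale), a number for the peaks within 20 kb, and white for no peak. The darkest rows are Aldoa, Gapdh and the Eno1 and Eno1b pair, while Pfkfb1 and Aldoc are white in every list.

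In upper glycolysis, which takes glucose to fructose bisphosphate, 5 of 7 genes were bound in WT muscle and 6 in each other list. Gpi1, glucose phosphate isomerase, had a promoter interval ranked 138 in WT muscle, 98 in ERRα3SA muscle, 401 in WT liver and 240 in ERRα3SA liver. It also had the most peaks of any of the genes in ERRα3SA muscle, 8, beside 5, 4 and 4 in WT muscle, WT liver and ERRα3SA liver.

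The phosphofructokinases, which catalyze the committed step, differed by tissue. Pfkm, the muscle form, had 6 peaks in WT muscle and 5 in ERRα3SA muscle, the best ranked 357 and 928 and lying 7569 and 7585 bp downstream of the TSS. In liver it had 1 peak, ranked 9851 in WT, and none in ERRα3SA. Pfkl, the liver form, ranked 1163 in WT muscle, 7851 in ERRα3SA muscle, 3204 in WT liver and 2583 in ERRα3SA liver. Its best interval lay 9337 to 9485 bp upstream of the TSS in 3 lists and was not called there in ERRα3SA muscle, where the best Pfkl interval lay 10993 bp downstream. Pfkp, the form first known from platelets, had an intronic interval 1.2 to 1.4 kb from the TSS ranked 430, 230, 904 and 1587, present in all 4 lists.

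Among the hexokinases, which trap glucose in the cell, Hk2 was bound in both muscle lists and in ERRα3SA liver, and Hk1 in both liver lists and in ERRα3SA muscle. Gckr, which encodes the inhibitory partner of the liver hexokinase, had a promoter peak in both liver lists and none annotated to it in muscle, where peaks named for a neighbour lay within 20 kb of its 5′ end in both lists. The best ranks of these 3 genes ran from 2872 to 16370.

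Of the 4 bifunctional enzymes that set the level of the allosteric activator of phosphofructokinase, 2 were bound in WT muscle, 3 in ERRα3SA muscle and 2 in each liver list. Pfkfb3, the inducible form, was bound in all 4 lists, ranked 4057, 2721, 1857 and 5504 by an intronic interval 6.9 to 7.0 kb downstream of the TSS. Pfkfb2, the form of heart, was bound in ERRα3SA muscle and not in WT muscle, with a rank of 2721 (top 5.37%) for an interval 12297 bp from the TSS. The same region was called in both liver lists, ranked 8204 in WT and 11212 in ERRα3SA. Pfkfb4 was bound in both muscle lists alone, and Pfkfb1 had no peak within 20 kb in any list.

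Of the 3 glucose transporters, 2 were bound in WT muscle, 3 in ERRα3SA muscle and 2 in each liver list. Slc2a1, the transporter of basal uptake in most cells, had 2 intronic intervals in both liver lists, at 7.2 to 7.4 kb and at 10.3 to 10.4 kb. The first ranked 109 in WT liver and 589 in ERRα3SA liver. In WT muscle the only Slc2a1 peak within 20 kb ranked 10219, and another, 22960 bp from the TSS, ranked 2194. In ERRα3SA muscle there were 5 peaks within 20 kb, the best ranked 5574, and 1 of them, at 7198 bp, lay over the variant motif of the liver interval. Slc2a4, the insulin-responsive transporter of muscle and fat, was singled out after its values were seen. It ranked 1338 in WT muscle and 1077 in ERRα3SA muscle and had no peak annotated to it in liver, although a peak annotated to a neighbouring gene lay within 20 kb of its 5′ end in ERRα3SA liver. Slc2a2, the transporter of hepatocytes, ranked 4147 in WT liver and 2437 in ERRα3SA liver by a peak about 2 kb upstream, while its 2 peaks within 20 kb in ERRα3SA muscle were tied at the lowest score of that list.

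**Figure D3:**
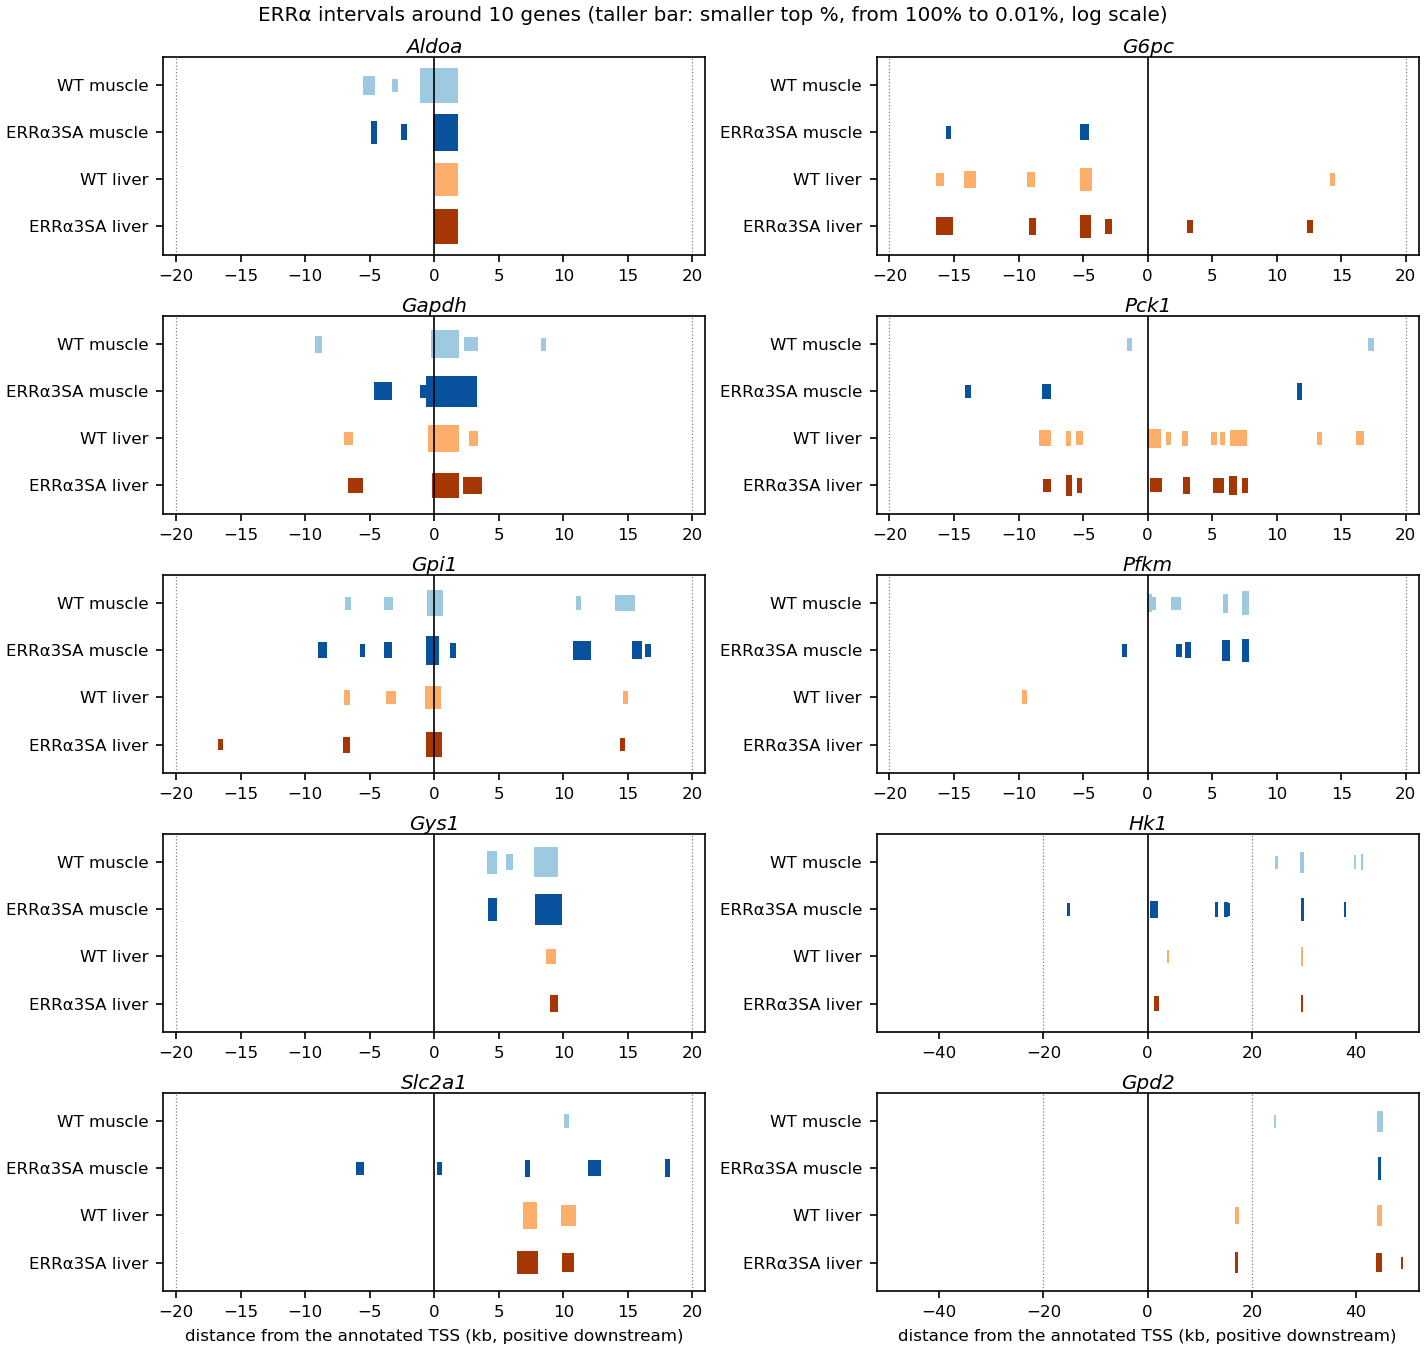
Called ERRα intervals around the TSS of 10 genes (x axis, distance in kb, positive downstream) in the 4 lists (rows), with bars as wide as the interval (at least 0.4 kb) and taller for a smaller top percent. Aldoa, Gapdh and Gpi1 have a tall bar near the TSS in every list, the Gys1 intervals near 9 kb are taller in muscle than in liver, and dotted lines mark the 20 kb limit, outside which Hk1 and Gpd2 have an interval in all 4 lists.

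Gluconeogenic genes held more peaks in liver. The 6 genes had 4 peaks in WT muscle, 9 in ERRα3SA muscle, 20 in WT liver and 24 in ERRα3SA liver, and 2, 4, 4 and 6 of them were bound. Pck1, the cytosolic phosphoenolpyruvate carboxykinase that starts the route, had 11 peaks within 20 kb in WT liver, the most of any of the genes in any list, and 8 in ERRα3SA liver, beside 2 in WT muscle and 3 in ERRα3SA muscle. In WT liver the best, ranked 1969, lay 485 bp downstream of the TSS. In ERRα3SA liver the interval there ranked 13000, and the best, ranked 1531, lay 6085 bp upstream, where WT liver had an interval ranked 8204. In muscle the best Pck1 ranks were 16894 in WT, at the lowest score of the list, and 7648 in ERRα3SA.

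G6pc encodes the catalytic subunit of the phosphatase that releases free glucose from liver. An interval about 4.8 kb upstream of its TSS ranked 495 in WT liver and 650 in ERRα3SA liver (top 2.27% and 2.24%). WT muscle had no G6pc peak within 20 kb, and ERRα3SA muscle had 2, of which the one at 4889 bp upstream overlapped the liver interval and ranked 11589. Both liver lists also held intervals about 9 kb upstream, over the ERRE printed above. Fbp1 and Fbp2, the fructose bisphosphatases, were bound in both liver lists. The best Fbp2 intervals, ranked 8204 in WT liver and 5225 in ERRα3SA liver, lay inside the neighbouring Fbp1. Nearest the Fbp2 TSS were intervals ranked 12151 in WT liver and 8754 in ERRα3SA liver. Pck2, the mitochondrial carboxykinase, was bound in ERRα3SA liver alone, and G6pc3, the widely expressed phosphatase, in both muscle lists and in ERRα3SA liver. The G6pc3 peaks of ERRα3SA muscle lay past the end of the gene, at 8889 and 12641 bp, whereas WT muscle had one at 164 bp. In ERRα3SA liver the G6pc3 peak ranked 23394.

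Of the 7 glycogen genes, 2 were bound in WT muscle, 4 in ERRα3SA muscle, 2 in WT liver and 7 in ERRα3SA liver. Gys1, the glycogen synthase of muscle, had an interval 8672 bp downstream of the TSS in WT muscle with rank 42 and an overlapping one in ERRα3SA muscle with rank 45, in the top 0.165% and 0.0889%. The overlapping liver intervals ranked 5512 in WT and 3426 in ERRα3SA, in the top 25.3% and 11.8%. The muscle intervals were 1893 and 2099 bp wide and covered both Gys1 sites printed above, and those of liver, 728 and 606 bp wide, covered the site shared by all 4 lists. Gys2, the glycogen synthase of liver, had a promoter peak ranked 2860 (top 9.85%) in ERRα3SA liver and none within 20 kb in WT liver. In ERRα3SA muscle a Gys2 peak was tied at the lowest score.

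Pygm, the glycogen phosphorylase of muscle, ranked 659 in WT muscle, 2166 in ERRα3SA muscle, 2203 in WT liver and 2982 in ERRα3SA liver, by an interval about 6 kb downstream of the TSS in each. Pygl, its liver counterpart, was called in the ERRα3SA list of both tissues and in neither WT list. Gyg, the primer of glycogen, Ugp2, which makes the activated sugar, and Gbe1, the branching enzyme, each had 1 peak within 20 kb, in ERRα3SA liver alone, with ranks of 18865, 13000 and 4744.

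The shuttle genes Gpd1 and Gpd2 carry reducing equivalents from glycolysis to the respiratory chain. Gpd1, the cytosolic enzyme, was bound in all 4 lists by an interval about 3 kb upstream, ranked 1338, 824, 4147 and 3231. Gpd2, the mitochondrial enzyme, was bound within 20 kb in liver alone, ranked 2587 in WT and 1205 in ERRα3SA.

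By isozyme, the muscle forms were Hk2, Pfkm, Aldoa, Pgam2, Eno3, Pkm, Slc2a4, Fbp2, Pygm and Gys1. The liver forms were Pfkl, Pfkfb1, Pklr, Slc2a2, Pck1, Fbp1, G6pc, Pygl and Gys2, with the regulator Gckr counted among them. The 10 of muscle were bound in 9, 9, 6 and 8 cases in WT muscle, ERRα3SA muscle, WT liver and ERRα3SA liver. The 10 of liver were bound in 2, 8, 7 and 9. Of all protein-coding genes, 34.5%, 48%, 30% and 37.7% were bound in the same order. Fbp2, the muscle form unbound in muscle, was bound in both liver lists, where its best intervals lay inside Fbp1. The liver forms bound in muscle thus numbered 2 in WT and 8 in ERRα3SA, whose list is the longer. With lists of equal length they numbered 2 and 4, and no share over all genes was counted at that length. At a score of at least 100, 1 of these liver forms was bound in WT muscle and 0 in ERRα3SA muscle. The 20 genes of neither kind were bound in 12, 13, 13 and 18 cases.

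Between genotypes of muscle, 22 genes were bound in both, beside 25.6% of all protein-coding genes. In ERRα3SA alone 8 of the 40 were bound, a share no higher than the 22.4% of all protein-coding genes. They were Hk1, Pfkfb2, Pklr, Slc2a2, Fbp1, G6pc, Pygl and Gys2. In WT alone 1 was bound (background 8.95%), the Eno1 of the naming described above. The best ranks of the 8 ran from 2721 to 32824, with 1 in the top 10% of the list and 0 at a score of at least 100. With the ERRα3SA list shortened to the length of the WT list by score, 4 of the 8 were still bound in ERRα3SA alone, namely Hk1, Pfkfb2, Pklr and G6pc. By any peak within 20 kb of an annotated 5′ end, whichever gene it was assigned to, Hk1 and Pygl were bound in both genotypes of muscle.

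In liver 25 genes were bound in both genotypes (background 22.7%). In ERRα3SA alone there were 10 (background 15%), which were Hk2, Pgam2, Eno3, Pck2, G6pc3, Pygl, Gys2, Gyg, Ugp2 and Gbe1, and in WT alone 1 (background 7.29%), Pfkm. The 10 had best ranks from 2860 to 23394, and 2 of them, Gys2 and Gbe1, had a score of at least 100. With lists of equal length 9 of the 10 were still bound in ERRα3SA alone. By any peak near an annotated 5′ end, Pgam2, Eno3, G6pc3, Pygl and Pfkm were bound in both genotypes of liver. In all 4 lists 15 genes were bound (background 12.5%): Gpi1, Pfkl, Pfkp, Pfkfb3, Aldoa, Tpi1, Gapdh, Pgam1, Eno1b, Pkm, Slc2a1, Pck1, Pygm, Gys1 and Gpd1. Eno1b stands here for the Eno1 locus, by the naming described above, since no peak lay within 20 kb of the reference 5′ end of Eno1b itself. Across tissues 29 genes were bound in both, 7 in liver only and 2, Slc2a4 and Pfkfb4, in muscle only, taking either genotype and the gene that each peak was annotated to. By any peak near an annotated 5′ end, Slc2a4 was also bound in ERRα3SA liver, Gckr in both muscle lists and Pck2 in ERRα3SA muscle.

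Genes bound in both genotypes did not always share the interval. In muscle 12 genes had peaks of the 2 genotypes with centres within 300 bp, and 18 of the 22 had intervals that shared a base. Over all protein-coding genes, bound or not, 2274 (10.4%) had a peak shared by centre, and 5602 were bound in both genotypes. In liver 22 had a peak shared by centre, and 23 of the 25 shared a base. Over all protein-coding genes, 3763 (17.2%) had a peak shared by centre in liver, and 4961 were bound in both genotypes. The counts of genes sharing a base were not set beside all genes. Between the genotypes, the Spearman rho of the best ranks was 0.915 over 25 genes in liver and 0.661 over 22 genes in muscle, where Eno1b is displaced by its naming. These values describe genes within a pair of libraries that share a tissue, and genes are not independent replicates. The top percentage was smaller in ERRα3SA for 19 of the 22 genes in muscle and for 16 of the 25 in liver, in lists that are longer in ERRα3SA.

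**Figure D4:**
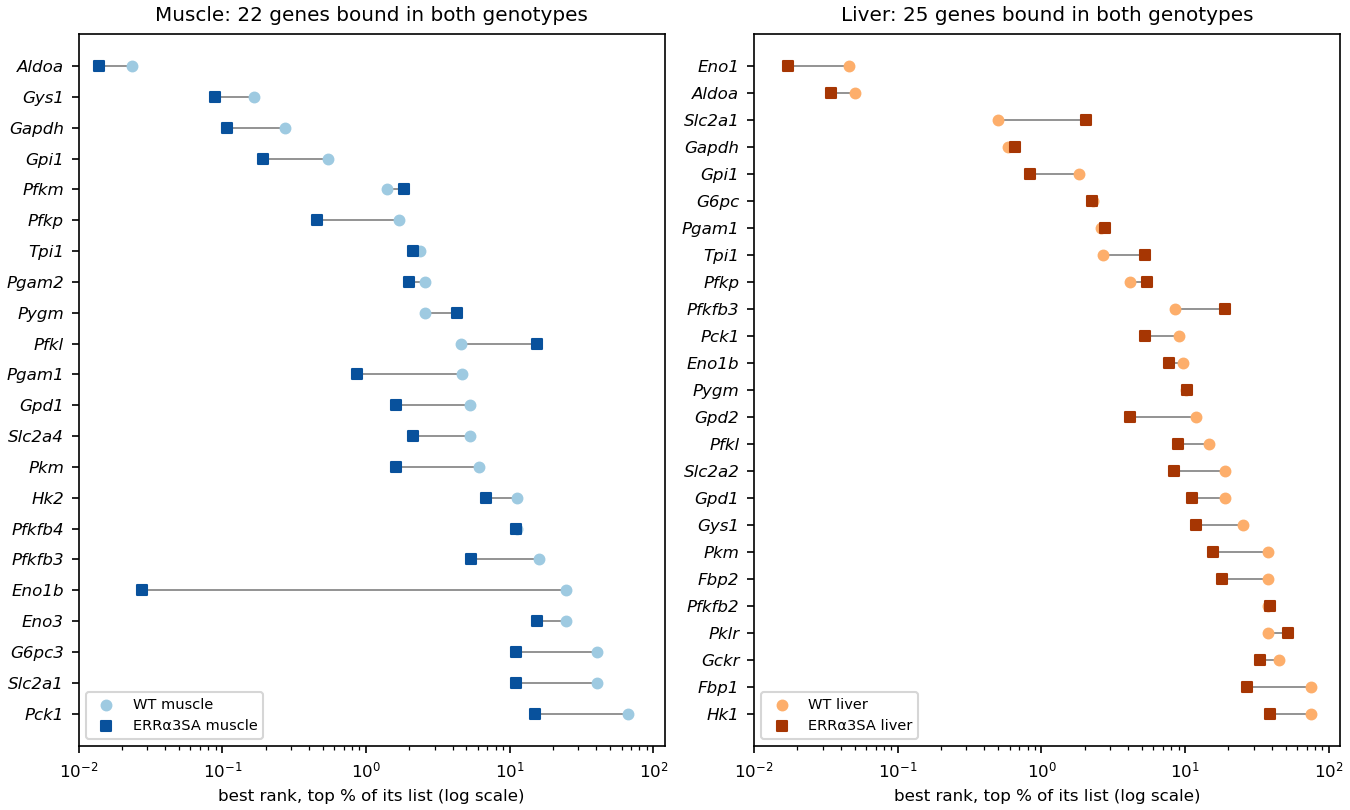
Best rank of each gene as top percent of its list (x axis, log scale) in WT (circles) and ERRα3SA (squares), joined by a line, for the 22 genes bound in both genotypes of muscle (left) and the 25 of liver (right), in the order of the WT value. The square lies to the left of the circle for 19 of 22 genes in muscle and for 16 of 25 in liver, and the longest line is that of Eno1b in muscle.

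Peaks of the genes were compared with all peaks within 20 kb of a TSS, as shares with 95% Wilson intervals that cover counting error only. These intervals treat peaks as independent, although a gene can hold several, so they can be too narrow. An interval that leaves out the share of all peaks is therefore no test of a difference. Bound genes had 2.70 peaks each in WT muscle, 2.97 in ERRα3SA muscle, 2.27 in WT liver and 2.34 in ERRα3SA liver. Over all bound genes the values were 1.5, 1.93, 1.49 and 1.71, here counted by gene name and not limited to protein-coding genes. Peaks with a score of at least 100 made up 19.4% (11.4–30.9) of the 62 peaks in WT muscle beside 6.13% of all, and 23.6% (16.0–33.4) of the 89 in ERRα3SA muscle beside 6.76%. In liver they made up 27.1% (17.4–39.6) of the 59 in WT beside 20.2%, an interval that includes the share of all peaks, and 36.6% (27.0–47.4) of the 82 in ERRα3SA beside 22.5%. The share downstream of the TSS was 72.6% (60.4–82.1) in WT muscle, 70.8% (60.6–79.2) in ERRα3SA muscle, 61.0% (48.3–72.4) in WT liver and 59.8% (48.9–69.7) in ERRα3SA liver, and each interval includes the share of all peaks, which was 63.1%, 61.4%, 58.5% and 59.5%. Introns held 56.5% (44.1–68.1), 64.0% (53.7–73.2), 40.7% (29.1–53.4) and 51.2% (40.6–61.7) of the peaks in the same order, beside 45.7%, 47.0%, 48.3% and 48.2% of all peaks, which lies outside the interval in ERRα3SA muscle alone. Promoter peaks made up 6.45% to 9.76% of the peaks, beside 8.18% to 12.0% of all peaks.

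Merged over the lists, the peaks formed 169 separate sites, of which 104 were called in 1 list, 34 in 2, 15 in 3 and 16 in 4. Sites called in a single list numbered 44 for ERRα3SA muscle, 27 for ERRα3SA liver, 22 for WT muscle and 11 for WT liver, which is also the order of the lengths of the lists. Of the genes' peaks in ERRα3SA muscle, 36.0% (26.8–46.3) shared a base with a WT muscle peak, beside 16.9% of all peaks. The ERRE was found anywhere in 3 of the 104 sites of 1 list (2.88%) and in 5 of the 16 sites of all lists (31.2%). The latter were also longer, with a median of 1861 bp beside 423 bp, and the part of this length was not tested.

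By gene, 5 genes had an ERRE in the central 300 bp of a peak in WT muscle beside 2.16% of all protein-coding genes, 3 in ERRα3SA muscle beside 4.27%, 5 in WT liver beside 6.33% and 6 in ERRα3SA liver beside 8.74%. By peak, the shares were 8.06% (3.49–17.5) in WT muscle and 3.37% (1.15–9.45) in ERRα3SA muscle, beside 4.45% and 4.86% of all peaks. In liver they were 10.2% (4.74–20.5) and 7.32% (3.40–15.1), beside 15.2% and 14.9%. The interval includes the share of all peaks in each of the 4 lists, so a difference from all peaks was not detectable in this window with these numbers of peaks. Over whole intervals the shares were 16.1% (9.0–27.2) in WT muscle beside 7.44% of all peaks, which lies outside the interval, and 10.1% (5.41–18.1) in ERRα3SA muscle beside 8.27%. In liver they were 16.9% (9.48–28.5) beside 21.4% in WT and 12.2% (6.76–21) beside 20.4% in ERRα3SA, both inside the interval. The intervals of these genes were wider than those of other genes, with medians of 565, 593, 643 and 549.5 bp beside 470, 461, 461 and 449 bp, so that several sites, such as that of Aldoa, lay outside the central window.

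Other genes of glucose use, counted by the same rule, stand beside these. Of 19 other glucose and glycogen genes, 7 (36.8%) were bound in WT muscle, 11 (57.9%) in ERRα3SA muscle and 10 (52.6%) in each liver list. All protein-coding genes were bound in 34.5% and 48% in muscle and in 30% and 37.7% in liver. At a score of at least 100, 4, 5, 5 and 8 of the 19 were bound in the order used above. The shares of all protein-coding genes were then 2.87%, 5.5%, 8.02% and 11.9%. Of 12 genes of pyruvate entry into mitochondria, 7, 9, 9 and 10 were bound in WT muscle, ERRα3SA muscle, WT liver and ERRα3SA liver. At a score of at least 100 these were 3, 5, 7 and 7. Of 18 genes of the citric acid cycle, the oxidative route for which ERRα is best known, 14, 15, 17 and 18 were bound, 10, 10, 11 and 13 of them at a score of at least 100. As a check of the tissue labels, peaks near 10 skeletal muscle markers were counted, and 8 and 9 were bound in muscle beside 5 and 6 in liver. Of 10 liver markers 2 and 4 were bound in muscle beside 4 and 5 in liver. At a score of at least 100, 4 and 6 of the muscle markers remained in muscle beside 1 and 2 in liver. Of the liver markers 0 and 0 remained in muscle and 0 and 2 in liver, so they separated the tissues little. Peaks are not expression, and the tissues were not checked in another way.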

How the data were processed

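The 4 ERRα ChIP-seq peak lists were used, and the 4 input samples were mapped to their groups but not analysed here. Per the labels and the methods, the authors used Trimmomatic 0.36 for trimming and BWA 0.7.12 for alignment to mm10, removed duplicates with Picard 2.0.1, called peaks with MACS2 2.1.1.20160309 against input and annotated them with HOMER 4.9.1. The deposited score is the number their peak caller gave each peak. It is compared within a list only, except where 1 minimum score is applied to all lists. The GC and CpG content is a deposited fraction of each interval, from 0 to 1, and TSS distances, in bp, come from the authors' annotation. The methods describe peaks of 1 fixed size, but the deposited intervals vary from 234 to 6788 bp.

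No interval passed the end of its GRCm38 chromosome, and recomputed GC content equalled the listed value for all but 0, 1, 2 and 2 of the peaks within 20 kb. A member was a gene of the name list with a peak of absolute distance up to 20 kb. Peaks of 2 lists were shared where their centres lay within 300 bp. Values are given in full for the 6 best ranks of each list, for genes bound in all 4 lists, and for genes bound in 1 genotype of a tissue by a peak in the top 10%, while the others are summarised. The members and lists were chosen with earlier results of these data known. No test between genotypes was possible with 1 library each, and shares have 95% Wilson intervals. The alternatives were a minimum score (50 or 100), equally long lists, a distance limit of 5 or 50 kb, promoter peaks only, any peak near a reference 5′ end, other rules for sharing, the motif TNAAGGTCA or the whole interval, another background and the worst rank of a tie. Treating Eno1 and Eno1b as 1 gene, the score of 200 and the search of distant sites were added after seeing the data. Overlap and motif search were tested on simulated data. Python 3.11.15 ran pysam 0.24.0 for sequences, pandas 2.3.3 and numpy 2.4.6 for tables, scipy 1.17.1 for intervals and matplotlib 3.10.9 for plots. Promoter sequences came from RefSeq for GRCm38.p6. Some site sequences are not reported here.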

Additional observations from a re-analysis of the deposited data

Results flagged for a closer look

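Some genes counted as unbound had peaks beyond the 20 kb limit, which enter no count above. They were 2 in WT muscle (Gpd2 and Hk1), 3 in ERRα3SA muscle (Gbe1, Gpd2 and Gyg), 4 in WT liver (Gbe1, Gys2, Hk2 and Pfkfb4) and 1 in ERRα3SA liver (Pfkfb4).

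The share of the genes' peaks within 1 kb of a TSS was lower in ERRα3SA than in WT muscle, 16.9% against 25.8%, and higher in ERRα3SA than in WT liver, 23.2% against 18.6%. The difference between tissues was not tested. Over all peaks within 20 kb, the shares were 17.4% against 26.2% in muscle and 22.6% against 20.6% in liver.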

How the results depend on the processing

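With a score of at least 100, the bound genes fell to 11 in WT muscle, 14 in ERRα3SA muscle, 15 in WT liver and 22 in ERRα3SA liver. Muscle then had 9 bound in both genotypes, 5 in ERRα3SA alone, 2 in WT alone and 6 shared by position. The 5 were Pgam1, Eno1b, Pkm, Slc2a4 and Gpd1, each bound in both genotypes without the score limit. The 2 were Pfkl and Eno1, and Eno1 and Eno1b are split by the naming described above. Liver had 15 in both, 0 in WT alone and 13 shared by position. These counts apply 1 score limit to lists whose scores are not otherwise compared. With a score of at least 50, WT alone held 2 genes in muscle and 0 in liver. With lists of equal length, 4 genes were bound in ERRα3SA muscle alone. Within 5 kb, 17 genes were bound in WT liver, 6 in WT muscle alone and 0 in WT liver alone, with 13 shared in liver. By promoter peaks only, 4, 6, 5 and 8 genes were bound in the order used above. Muscle then had 1 in both, 5 in ERRα3SA alone, 3 in WT alone and 1 shared, and liver 4 in both, 4 in ERRα3SA alone and 4 shared. By any peak near a reference 5′ end, WT alone held 0 genes in either tissue, and with Eno1 and Eno1b as 1 gene it held 0 in muscle. With these names joined, 22, 30, 25 and 34 genes were bound in WT muscle, ERRα3SA muscle, WT liver and ERRα3SA liver. With TCAAGGTCA sought in the whole interval, 9, 8 and 8 genes had it in WT muscle, ERRα3SA muscle and WT liver, and with TNAAGGTCA 8 in ERRα3SA muscle. The cause of these changes was not tested beyond the settings themselves. The worst rank of a tie left 105 of 114 best ranks within 1.5 times. Against genes named in any list, the background was 45.1%, 63.5%, 39.2% and 49.2%. No paired analysis was possible because each group has 1 library. With 1 list per group and unknown depth, a peak missing from a list is not shown to be absent from the tissue.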

Other observations

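The genes' 88 peaks beyond 20 kb formed 67 sites, of which 3 were called in all 4 lists. These were looked at after the data were seen. Hk1, which has no peak within 20 kb in WT muscle, had an intronic interval 29623 to 29684 bp downstream of the annotated TSS, ranked 932 in WT muscle, 733 in ERRα3SA muscle, 1746 in WT liver and 4792 in ERRα3SA liver. It held a TCAAGGTCA. Gpd2 had an interval about 44 kb downstream, ranked 835, 989, 941 and 1754 in the same order, with neither motif form. Pfkfb4 had one at 20599 to 20853 bp, just outside the limit, ranked 1338, 928, 1857 and 2578, with the variant motif, while the peaks nearest inside the limit were those of Pkm at 19086 and 19156 bp and of Pfkfb3 at 19369 bp. The calls of Hk1 as bound in ERRα3SA muscle alone, and of Pfkfb4 as bound in muscle only, thus hold for the 20 kb limit. The sites are shown as those above, with the motif in capitals.
Hk1 (chr10:62310707-62310775, minus strand): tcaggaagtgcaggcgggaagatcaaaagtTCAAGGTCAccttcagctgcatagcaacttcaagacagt
Pfkfb4 (chr9:109012556-109012624, minus strand): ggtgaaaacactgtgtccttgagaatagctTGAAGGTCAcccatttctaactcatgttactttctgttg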
